A study of Homo sapiens with 9 samples.

Results

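Accessible chromatin was described at 9 genes that encode transcription factors of the luminal breast epithelium: FOXA1, GATA3, GRHL1, GRHL2, TFAP2A, TFAP2B, TFAP2C, SPDEF and ELF3. A called region was assigned to one of them when it touched the gene's span, or when it lay within 50 kb of either end and no other protein-coding gene was nearer. Across the 3 deposited lists, 82 of 97804 merged regions were assigned to the 9 genes. ATAC-seq tags open chromatin with a transposase, and it was applied to T47D, an established line of oestrogen receptor-positive luminal breast cancer. All 9 samples were T47D cells grown in culture after lentiviral infection and drug selection, 3 in each of 3 groups: a control hairpin (shCtrl) in normoxia, shCtrl in hypoxia, and a hairpin against the transcription factor ZHX2 (shZHX2) in hypoxia. Neither the oxygen level nor the duration nor the number of hairpins is stated in the labels. No shZHX2 sample in normoxia was analysed here. The series asks how hypoxia, and ZHX2 within hypoxia, bear on chromatin accessibility.

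FOXA1 and GATA3 are known as factors that open chromatin for the oestrogen receptor in luminal cells. The grainyhead-like proteins GRHL1 and GRHL2 keep epithelial adhesion genes active, and the AP-2 proteins encoded by TFAP2A, TFAP2B and TFAP2C bind GC-rich palindromes and are expressed in breast epithelium. SPDEF and ELF3 are epithelial members of the ETS family. An accessible region is a place where such factors or the transcription machinery may bind, and it is not a measure of the gene's RNA or protein.

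The 4 promoters printed here show how differently these genes start. The ELF3 window has a TATA box at the usual place, the GRHL1 window is a GC-rich island, the first GATA3 window has AP-2 and FOX matches, and the TFAP2B window was the one whose gene had no called region over its start. Each window runs from 250 bases before to 50 bases after a start annotated by RefSeq on GRCh38.p14, reads 5′ to 3′ and lies on the plus strand. The windows are chr1:202010337-202010636 for ELF3, chr2:9951443-9951742 for GRHL1, chr10:8045083-8045382 for the first start of GATA3 and chr6:50818621-50818920 for TFAP2B. Capitals mark every match, on either strand, to the 10 motifs searched.
ELF3: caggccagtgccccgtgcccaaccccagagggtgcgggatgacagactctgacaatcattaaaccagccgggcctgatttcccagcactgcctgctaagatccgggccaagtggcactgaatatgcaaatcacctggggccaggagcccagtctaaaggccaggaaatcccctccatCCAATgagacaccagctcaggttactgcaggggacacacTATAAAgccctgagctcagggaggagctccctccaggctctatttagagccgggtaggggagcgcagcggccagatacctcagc
GRHL1: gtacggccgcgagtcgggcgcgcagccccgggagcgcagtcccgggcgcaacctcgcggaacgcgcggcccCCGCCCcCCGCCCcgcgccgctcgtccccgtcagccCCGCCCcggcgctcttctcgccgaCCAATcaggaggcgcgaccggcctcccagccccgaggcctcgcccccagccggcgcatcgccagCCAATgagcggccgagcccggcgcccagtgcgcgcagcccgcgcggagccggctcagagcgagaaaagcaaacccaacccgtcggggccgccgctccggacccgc
GATA3: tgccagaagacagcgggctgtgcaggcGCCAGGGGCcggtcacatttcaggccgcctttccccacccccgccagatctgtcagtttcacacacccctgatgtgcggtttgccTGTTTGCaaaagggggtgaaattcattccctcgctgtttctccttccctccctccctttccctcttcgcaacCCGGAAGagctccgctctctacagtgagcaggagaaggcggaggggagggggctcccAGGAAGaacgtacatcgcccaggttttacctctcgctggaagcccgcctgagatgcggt
TFAP2B: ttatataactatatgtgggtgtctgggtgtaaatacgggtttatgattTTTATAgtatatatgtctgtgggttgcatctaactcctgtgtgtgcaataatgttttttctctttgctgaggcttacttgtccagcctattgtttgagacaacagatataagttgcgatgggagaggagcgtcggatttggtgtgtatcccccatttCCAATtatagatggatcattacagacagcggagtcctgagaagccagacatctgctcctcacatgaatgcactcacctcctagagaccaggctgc

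The ELF3 capitals are a CCAAT box 73 to 69 bases before the start and a TATA box 34 to 29 bases before it. In GRHL1 they are 3 GC boxes, the nearest of them 143 to 138 bases before the start, and 2 CCAAT boxes. In the first GATA3 window they are an AP-2 match 223 to 215 bases before the start, a FOX match 138 to 132 bases before it and 2 ETS matches. In TFAP2B a TATA match on the opposite strand lay 202 to 197 bases before the start, and a CCAAT box lay 45 to 41 bases before it.

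RefSeq promoters were at hand for 7 of the 9 genes, in 13 windows, of which 6 belong to GATA3 and 2 to TFAP2A. The motif for AP-2, GCCNNNGGC, occurred in 3 of the 13 windows, all at GATA3, and in 23.2% of all 35116 promoter windows. The FOX motif, TGTTTAC or TGTTTGC, occurred in 2 of 13 (FOXA1 and GATA3), against 7.17% of all windows. The GRHL motif, AACCGGTT or AACNNGTT, and the GATA motif, AGATAA or TGATAA, occurred in 0 of 13, against 3.52% and 16.3%. Every match to the first GRHL form is also one to the second.

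The HIF core, ACGTG or GCGTG, bound by the hypoxia-inducible factors, occurred in 4 of 13 windows (GATA3, SPDEF and TFAP2A), against 48.4% of all windows. ETS matches, CCGGAAG or AGGAAG, occurred in 4 of 13 (GATA3, SPDEF and TFAP2A), against 40.7%, and the 2 forms share their last letters. The GC box, GGGCGG, occurred in 6 of 13, against 45.0%, and the CCAAT box in 6 of 13, against 34.6%. The TATA box, TATAAA, occurred in 4 of 13 (ELF3, GATA3, TFAP2A and TFAP2B), against 11.5%. The oestrogen receptor core motif, AGGTCA, occurred in 1 of 13 (TFAP2A), against 13.8%. All motifs were searched on both strands, and a match describes letters in the window and not a bound site.

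The 13 windows spanned a wide range of base composition. GC content was 79.7% at GRHL1, with 52 CpG dinucleotides, 69.3% at FOXA1, with 34, and 43.0% at TFAP2B, with 5. The median over the windows of protein-coding genes was 62.3% GC and 21 CpG. ELF3, at 59.0% GC with 7 CpG, and SPDEF, at 52.0% with 8, lay below both medians. Their starts were called in all 3 lists, so a CpG-poor start was not always an uncalled one among these genes.

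The 3 lists held 90962 regions for shCtrl in normoxia, 77451 for shCtrl in hypoxia and 62779 for shZHX2 in hypoxia. With 1 list for the 3 samples of a group, replicate spread is unknown, no test was possible and every difference below is a difference between lists. The read depth of the lists is not known, and in bulk nuclei fewer cells with an open site and less opening per cell cannot be told apart. "Called" means past the authors' threshold in a list, and each region carries the authors' own fold enrichment over local background and −log10 q. Accessibility does not measure ZHX2 RNA, so the knockdown itself was not checked. Starts of all 7 luminal epithelial markers (KRT8, KRT18, KRT19, EPCAM, CDH1, ESR1, MUC1) had a called region within 1 kb in each list. Of the starts of 7 basal markers only those of FOXC1 and EGFR had one in any list. Starts of mesenchymal markers were called for 4, 3 and 3 of 7 genes in the order of the lists above, of blood markers for 3 of 6 in each and of endothelial markers for 1 of 4 in each. The share over all protein-coding genes was 73.8%, 72% and 70.3% in that order.

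The 9 genes had 79 regions in normoxia, 67 in hypoxia with shCtrl and 64 in hypoxia with shZHX2. These covered 73726, 58853 and 51254 bp. GRHL2 had the most, with 24, 21 and 20 regions in that order. GATA3 had 11, 9 and 8, TFAP2A 10, 9 and 10, SPDEF 7, 7 and 7, and ELF3 7, 7 and 6. The remaining genes had 5 or fewer in any list: FOXA1 had 5, 3 and 3, GRHL1 5, 3 and 2, and TFAP2B and TFAP2C each 5, 4 and 4. In merged regions, 134 of 20037 protein-coding genes (0.669%) had more than the 26 of GRHL2 and 814 (4.06%) more than the 13 of GATA3. The median gene had 3. The gene table used gives spans and not exons, so a region in a gene is not placed in an exon or an intron. GRHL2 spans 188.8 kb and FOXA1 5.70 kb, and the part of gene length in these counts was not tested.

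**Figure D1:**
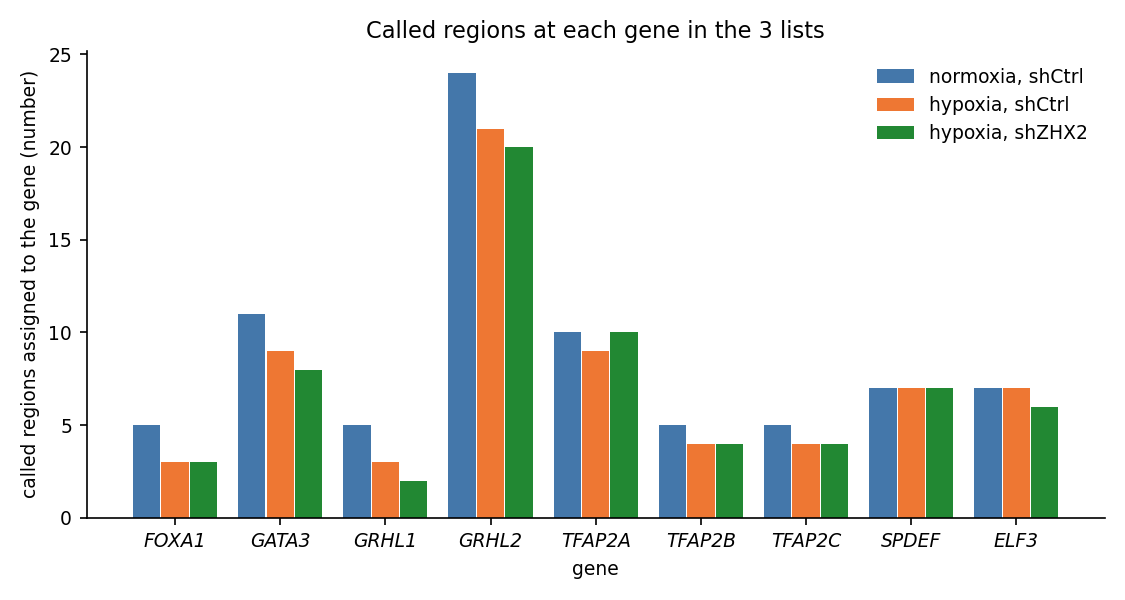
Number of called regions (vertical axis) assigned to each of the 9 genes (horizontal axis) in the 3 lists, 1 bar per list and no error bars because each group has 1 list. GRHL2 stands highest with 24, 21 and 20 regions, and the normoxia bar is the highest or equal highest at every gene.

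Regions at the 9 genes were wider and of lower fold than most. Their median width was 853, 744 and 692 bp in normoxia, hypoxia with shCtrl and hypoxia with shZHX2, against 520, 483 and 493.5 bp over all regions assigned to protein-coding genes. Their median fold enrichment was 3.13, 3.18 and 3.51, against 4.19, 4.35 and 4.89. In normoxia the median fold was above 4.19 at GRHL1 (4.63), TFAP2B (4.92), TFAP2C (4.34) and ELF3 (4.95), and below it at the other genes. The median width at GRHL1, 447 bp, was below 520 bp. The part of width in the lower pooled fold was not tested.

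Most of the sites were called whatever the condition. Of the 82 merged regions, 54 (65.9%, Wilson 95% interval 55.1% to 75.2%) were called in all 3 lists, against 61.4% of all regions at protein-coding genes. Such intervals cover counting error only, and regions of 1 gene are not independent. Another 13 (15.9%) were called in normoxia alone, against 15.6% at protein-coding genes. In normoxia and hypoxia with shCtrl 7 (8.54%) were called, against 14.3%, and in normoxia and hypoxia with shZHX2 3 (3.66%), against 2.31%. Hypoxia with shCtrl alone had 3 (3.66%), against 3.78%, and hypoxia with shZHX2 alone 2 (2.44%), against 1.93%. The 2 hypoxia lists without normoxia had 0, against 0.739%. The regions called in all 3 had a median width of 1091.5 bp and a median top −log10 q of 87.6 (13.8 to 842). The other 28 had a median width of 316.5 bp and a median top −log10 q of 13.5, and 3 of them exceeded 30, against 46 of the 54. So the sites that differed between lists were mostly narrow and near the threshold. A top value is the highest over the lists that called a region, and a merged width spans all of them. Both therefore tend to be larger, by construction, in regions called in more lists.

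Regions over starts kept their call in every list. All 11 merged regions that covered an annotated start, or a gene end for GRHL2 and TFAP2C, were called in all 3 lists, against 96% of the 12945 regions that covered a start of any protein-coding gene. Of the 71 others, 43 (60.6%) were called in all 3, against 54.5% of regions that covered no start. The same gap between starts and other sites was thus present over all protein-coding genes, and it was absent at TFAP2A, where every region was called in all 3. Within 1 kb of a start each of the 9 genes had a region in each list, against 73.8% of protein-coding genes in normoxia, 72% in hypoxia with shCtrl and 70.3% in hypoxia with shZHX2. With a window of 250 bp the number was 8 in each list, the exception being TFAP2B. No share over all protein-coding genes is given for that window, so this number has no comparison. The first region after the TFAP2B start began 832 bp from it in normoxia, 799 bp in hypoxia with shCtrl and 782 bp in hypoxia with shZHX2. At 5 genes a start region holds the start of another annotated gene as well. The FOXA1 region holds that of TTC6, the ELF3 region that of ELF3-AS1, and a GATA3 region that of GATA3-AS1, and GRHL1 and TFAP2A share theirs too, so the signal there cannot be given to one gene.

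FOXA1, the forkhead pioneer factor, had 3 regions in all lists. The region over its start (chr14:37594211-37596552) had a fold enrichment of 2.26 in normoxia, 2.32 in hypoxia with shCtrl and 2.34 in hypoxia with shZHX2. A region 4047 bp past the gene (chr14:37583333-37585505) had 2.85, 2.94 and 3.09, and one inside the gene (chr14:37591489-37592596) 1.56, 1.91 and 1.75. The start and the region past the gene thus differed little between lists. The other 2 regions were called in normoxia alone, with folds of 3.67 (chr14:37573464-37573697) and 1.46 (chr14:37588291-37588733) and −log10 q of 20.5 and 13.1. Another 6 regions within 50 kb of FOXA1 lay nearer to or inside its neighbours MIPOL1 and TTC6.

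GATA3, a zinc finger factor required for luminal differentiation, had called regions over several of its annotated starts. The region over its first start (chr10:8045007-8045812) had a fold of 2.98 in normoxia, 2.56 in hypoxia with shCtrl and 2.52 in hypoxia with shZHX2, with −log10 q of 102, 44.0 and 30.9. A region over 2 later starts (chr10:8053313-8054853) had 2.95, 3.01 and 3.11, with −log10 q of 273, 217 and 219. The fold over the first start was lower in both hypoxia lists, and that over these 2 later starts was not, while −log10 q was lower in hypoxia at both. Between them, a region over the third start (chr10:8050641-8052145) was also lower in hypoxia, at 1.78, 1.66 and 1.64, and was 1505, 1345 and 479 bp wide. The log2 ratio of hypoxia over normoxia with shCtrl was −0.22 over the first start, −0.11 over the third and 0.03 over the 2 later starts. Of all shared regions 17.6%, 32.2% and 62.1% had a lower one, so these differences were of ordinary size.

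Past the 3′ end of GATA3, a region 9309 bp away (chr10:8084507-8085767) had the highest fold of the locus in each list, at 3.59 in normoxia, 3.16 in hypoxia with shCtrl and 4.14 in hypoxia with shZHX2. A region inside the gene (chr10:8068362-8069329) was called in normoxia and in hypoxia with shCtrl, with folds of 1.95 and 2.09, and not with shZHX2. Before the gene, 2 narrow regions less than 1 kb apart were each called in a single list, one in hypoxia with shCtrl at 2.64 (chr10:8037093-8037292) and one in hypoxia with shZHX2 at 3.35 (chr10:8038005-8038235). The 3 regions called in normoxia alone (chr10:8063814-8064122, chr10:8112248-8112465 and chr10:8123495-8124165) had folds of 1.67, 3.09 and 2.98 and −log10 q of 9.50 to 13.5. Just past the limit of 50 kb, a region 53024 bp from GATA3 was called in normoxia and with shZHX2.

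GRHL1 kept a strong start in every list. Its start region (chr2:9950791-9952378) had a fold of 5.36 in normoxia, 5.38 in hypoxia with shCtrl and 5.70 in hypoxia with shZHX2, with −log10 q of 302, 273 and 283. Inside the gene the values moved more: a region 20812 bp past the start (chr2:9972505-9973155) had 6.06, 3.98 and 4.84. Its log2 ratio of hypoxia over normoxia with shCtrl was −0.61, and 1.78% of all shared regions had a lower one. A further region inside the gene (chr2:9984090-9984546) had 4.63 in normoxia and 4.12 in hypoxia with shCtrl and was not called with shZHX2. Its −log10 q in hypoxia with shCtrl, 28.1, was the highest among the 11 calls lost with shZHX2. The 2 regions called in normoxia alone (chr2:9944465-9944681 and chr2:10006960-10007159) had folds of 3.42 and 2.75 and were 217 and 200 bp wide.

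**Figure D2:**
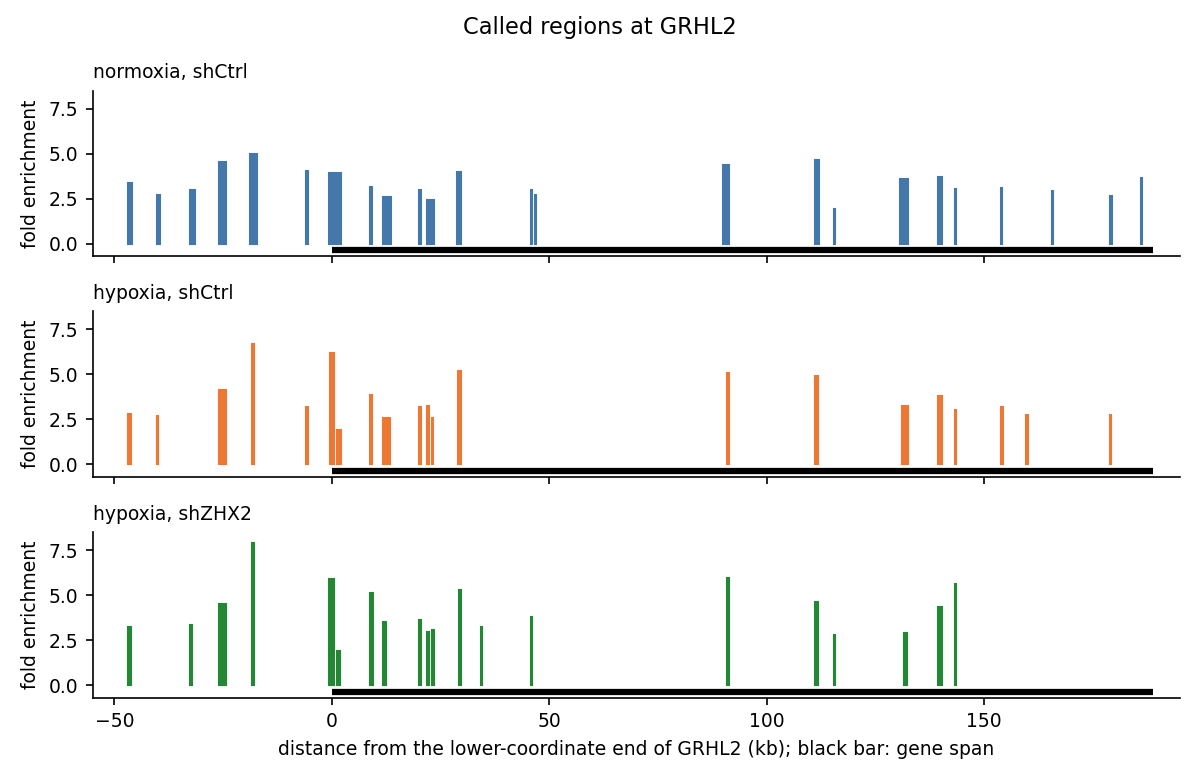
Called regions at GRHL2 by distance from the gene's lower-coordinate end in kb (horizontal axis) and the authors' fold enrichment (vertical axis), 1 panel per list, bar width showing region width and the black bar the gene span. The tallest bar of each panel lies before the gene (4.96, 6.69 and 7.91 in the order of the panels), and a region far inside the gene stands at 5.60 with shZHX2, against 3.01 and 3.04.

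GRHL2, the grainyhead factor best known for holding breast epithelium in its epithelial state, had 26 merged regions on chromosome 8, of which 14 were called in all 3 lists. At its lower-coordinate end, normoxia had a single region of 2647 bp (chr8:101491805-101494451) with a fold of 3.90 and a −log10 q of 400. Both hypoxia lists had 2 regions there instead. The one at the gene end had 6.19 and a −log10 q of 676 with shCtrl, and 5.90 and 691 with shZHX2, and the inner one had 1.93 in both. A split region and a merged one are not like with like. The log2 ratios of hypoxia over normoxia there, 0.67 for the piece at the gene end and −1.01 for the inner one, compare a piece with a whole.

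Upstream of GRHL2, a region 17166 bp before the gene end (chr8:101473710-101475273) had a fold of 4.96 in normoxia, 6.69 in hypoxia with shCtrl and 7.91 in hypoxia with shZHX2. It was 1564, 648 and 602 bp wide in the same lists, and the part of width in the fold was not tested. A region of nearly constant width 8791 bp inside the gene (chr8:101501230-101501808) had 3.13, 3.86 and 5.13, with widths of 481, 469 and 579 bp. In that region the 3 lists thus stood in the same order as at the wider upstream one.

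The region with the largest ratio of shZHX2 over shCtrl in hypoxia also lay in GRHL2, 143277 bp inside the gene (chr8:101635716-101636055). Its fold was 3.01 in normoxia, 3.04 in hypoxia with shCtrl and 5.60 in hypoxia with shZHX2, with −log10 q of 21.7, 19.4 and 58.2. The log2 ratio of shZHX2 over shCtrl was 0.88, and 0.22% of all 48989 shared regions had a higher one. Width was 275, 248 and 340 bp in the same lists, and the part of width in the fold was not tested.

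Calls at GRHL2 also came and went. A region 5555 bp before the gene end (chr8:101486561-101486884) had 4.01 in normoxia and 3.17 in hypoxia with shCtrl, with −log10 q of 54.2 and 20.7, and was not called with shZHX2. The 3 regions that the normoxia and shZHX2 lists held and the list of shCtrl in hypoxia lacked were all at GRHL2, 3 of its 26 and 3 of all 82, against 2.31% of merged regions at protein-coding genes. They lay 31523 bp before the gene end (chr8:101459736-101460916, folds 2.99 and 3.34) and 45712 and 115426 bp inside the gene (chr8:101538151-101538564, 2.97 and 3.80, and chr8:101607865-101608257, 1.90 and 2.79). The −log10 q of these calls was 10.3 to 18.8, so they were weak in both lists that held them. One region (chr8:101652173-101652614) was called in hypoxia with shCtrl alone, at 2.73, and one (chr8:101526641-101526927) with shZHX2 alone, at 3.23. Another 3 were called in normoxia alone, with folds of 2.68 (chr8:101539131-101539363), 2.91 (chr8:101657960-101658261) and 3.62 (chr8:101678476-101678725). The remaining 3 were called in both shCtrl lists and not with shZHX2. Their folds in normoxia and hypoxia were 2.71 and 2.68 (chr8:101452228-101452822), 3.08 and 3.19 (chr8:101646332-101646834), and 2.64 and 2.77 (chr8:101671376-101671745). With shZHX2 the last call towards the far end lay 143277 bp inside the gene, and both shCtrl lists had calls beyond it. The nearest region past the limit of 50 kb, 53489 bp away, was called in all 3 lists.

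**Figure D3:**
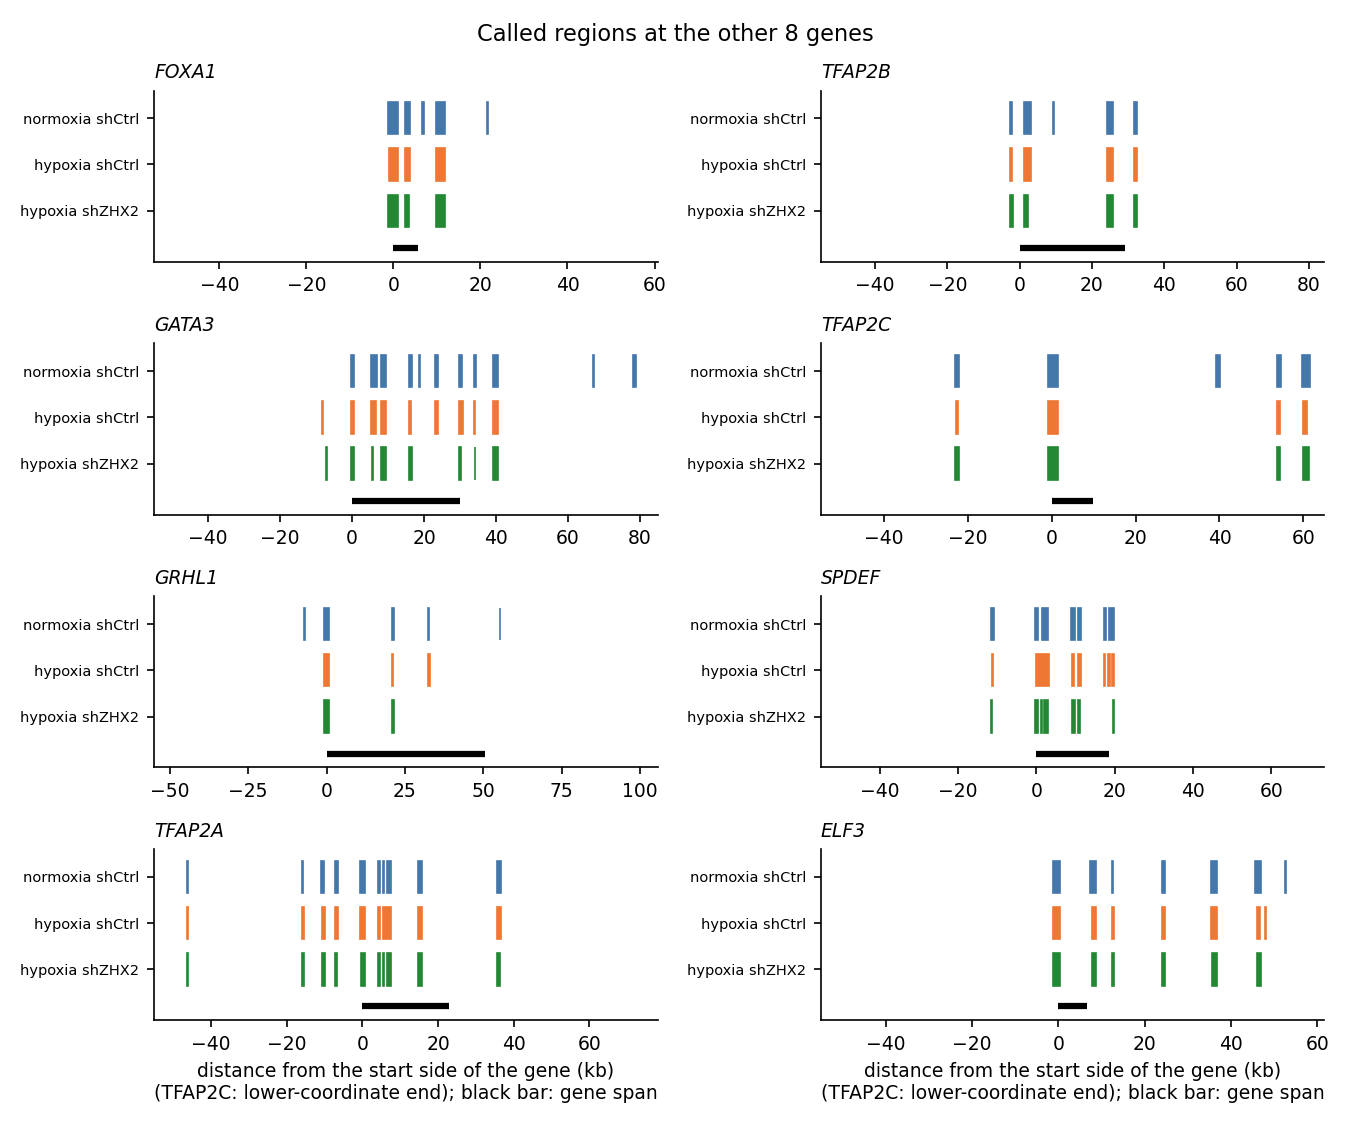
Called regions (coloured blocks) at the 8 genes other than GRHL2, 1 row per list, by distance in kb from the start side of the gene (TFAP2C: its lower-coordinate end), with the gene span as a black bar. TFAP2A has the same 9 sites in each row, while FOXA1, GATA3, GRHL1, TFAP2B, TFAP2C and ELF3 each have at least 1 block that appears in 1 row only.

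TFAP2A, which encodes AP-2 alpha, was the one gene with every merged region, 9 of 9, called in all 3 lists. The share over all regions at protein-coding genes was 61.4%. At the rates of all regions of like −log10 q (10 classes of equal size), 0.56 of 10 would have been lost from normoxia to hypoxia. From hypoxia with shCtrl to shZHX2 the number was 1.13 of 9. Its strongest region by −log10 q lay inside the gene, 14577 bp from the start (chr6:10403807-10405082). The fold there was 6.09 in normoxia, 7.13 in hypoxia with shCtrl and 8.15 in hypoxia with shZHX2, with −log10 q of 557, 736 and 842, the highest among all 82. That region also holds the start of the antisense gene TFAP2A-AS2. In normoxia a region 12668 bp past the gene (chr6:10382935-10384009) had a higher fold, at 6.74, with 6.38 in hypoxia with shCtrl and 8.06 with shZHX2. The region inside the gene was 1276, 1115 and 1045 bp wide in normoxia, hypoxia with shCtrl and hypoxia with shZHX2. The one past the gene was 1002, 1020 and 780 bp wide.

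The first start of TFAP2A (chr6:10418938-10420215) had a fold of 3.47 in normoxia, 3.82 in hypoxia with shCtrl and 3.51 in hypoxia with shZHX2. The second (chr6:10412130-10414223) was 2 regions in normoxia and with shZHX2, at 2.82 and 1.69 and at 2.48 and 1.94, and a single one at 2.16 in hypoxia with shCtrl. A region 9942 bp before the gene (chr6:10429601-10430458) had 5.03, 5.31 and 6.98. In contrast, the farthest region before the gene (chr6:10465658-10465994) had 4.83 and 4.77 with shCtrl and 3.41 with shZHX2, at nearly equal widths of 337, 329 and 315 bp. Its log2 ratio of shZHX2 over shCtrl was −0.49, and 3.76% of all shared regions had a lower one. Within this gene the sites therefore did not all differ in the same direction.

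TFAP2B, the AP-2 beta gene, lies next to its paralog TFAP2D on chromosome 6. It had 4 regions in all lists and 1 in normoxia alone (chr6:50827707-50827925, fold 2.68). The region nearest after its start (chr6:50819653-50821463) had 2.97 in normoxia, 3.08 in hypoxia with shCtrl and 3.07 in hypoxia with shZHX2. The region 2352 bp past the gene (chr6:50849971-50850797) had a fold of 7.34 in normoxia, 6.23 in hypoxia with shCtrl and 4.78 in hypoxia with shZHX2, with −log10 q of 98.2, 69.4 and 32.6. This is the reverse of the order seen at the upstream GRHL2 region, at widths of 827, 693 and 684 bp. The region before the gene (chr6:50815603-50816410) had 4.92, 4.42 and 5.13, and the one near the far end of the gene (chr6:50842593-50844284) 5.27, 4.86 and 5.14, both slightly lower in hypoxia with shCtrl than in the other lists.

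TFAP2C, which encodes AP-2 gamma, an AP-2 factor known to act on the oestrogen receptor gene, also had 4 regions in all lists. The region at its lower-coordinate end (chr20:56628384-56630944) had a fold of 3.13 in normoxia, 3.34 in hypoxia with shCtrl and 3.63 in hypoxia with shZHX2. A region 22051 bp before it (chr20:56606328-56607255) was the strongest of the locus by fold, at 6.71, 6.94 and 6.40. In fold neither differed much between lists. The −log10 q was 266, 250 and 300 at the gene end, and 200, 128 and 80.9 at the region before it. The 1 region called in normoxia alone (chr20:56668568-56669516) had a fold of 2.73 and a −log10 q of 11.7. The member region closest to the limit, 49783 bp past the gene, was called in all 3 lists.

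SPDEF, the ETS factor of secretory luminal cells, differed between lists in the shape of its start. Normoxia had 2 regions within chr6:34553189-34556602, with folds of 2.28 and 3.42, and the second covered the start. Hypoxia with shCtrl had 1 region of 3319 bp at 2.58. With shZHX2 there were 3 regions, at 2.33, 2.10 and 4.0, the last over the start. The −log10 q over the start was 108, 35.3 and 87.3, over regions of 658, 3319 and 564 bp, so these values do not compare the start itself. The region before the gene (chr6:34567087-34567818) had 3.18, 2.87 and 3.23, the highest fold of the locus in hypoxia with shCtrl. Inside SPDEF, a region of like width in the shCtrl lists (chr6:34544788-34545605) had 3.48 in normoxia, 2.66 in hypoxia with shCtrl and 2.23 in hypoxia with shZHX2, with −log10 q of 84.8, 23.9 and 9.62. Another (chr6:34538596-34539016) had 2.39 and 2.46 with shCtrl and was not called with shZHX2.

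ELF3, an epithelial ETS factor, held the highest fold of all the regions described. That region lay 17329 bp past the gene (chr1:202034512-202035391), with a fold of 8.89 in normoxia, 8.74 in hypoxia with shCtrl and 9.37 in hypoxia with shZHX2. Its −log10 q was 556, 398 and 324, lowest in the list where the fold was highest. The start (chr1:202009336-202010950) had 4.48, 4.93 and 5.24, with −log10 q of 539, 528 and 522. A smaller region 5759 bp past the gene (chr1:202022942-202023432) had 2.75, 3.07 and 3.93. The 2 regions not called in all lists were 200 and 213 bp wide, 1 in hypoxia with shCtrl alone at 2.14 (chr1:202058466-202058665) and 1 in normoxia alone at 2.88 (chr1:202063198-202063410).

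Between normoxia and hypoxia with shCtrl, calls were lost about as often as at other genes. Of the 79 normoxia regions, 16 (20.3%, interval 12.9% to 30.4%) had no partner in hypoxia, against 19.1% of the 73292 normoxia regions at protein-coding genes. They were 6 of 24 at GRHL2, 3 of 11 at GATA3, 2 of 5 at FOXA1, 2 of 5 at GRHL1, 1 of 7 at ELF3 and 1 of 5 each at TFAP2B and TFAP2C. SPDEF lost 0 of 7 and TFAP2A 0 of 10, and the rates of all regions of like −log10 q gave 0.32 and 0.56 there. The lost regions had −log10 q of 9.10 to 20.5 and a median width of 276 bp, against 934 bp for those kept. At the rates of all regions of like −log10 q (10 classes of equal size) 16.6 would have been lost. In the other direction 3 of 67 hypoxia regions (4.48%, interval 1.53% to 12.4%) had no partner in normoxia, against 5.61%. With all lists reduced to the length of the shortest by −log10 q, the loss from normoxia to hypoxia was 3 of 54 (5.56%), against 9.78% of regions at protein-coding genes reduced the same way.

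Between shCtrl and shZHX2 in hypoxia, 11 of 67 regions (16.4%, interval 9.42% to 27.1%) had no partner with shZHX2, against 22.6% of the 63006 regions at protein-coding genes. The number given by the rates of all regions of like −log10 q was 18.3, and without GRHL2 6 of 46 were lost. GRHL2 lost 5 of 21, GATA3 2 of 9, SPDEF 2 of 7, GRHL1 1 of 3 and ELF3 1 of 7. FOXA1, TFAP2A, TFAP2B and TFAP2C lost 0, where the rates at like −log10 q gave 0.09, 1.13, 0.68 and 0.22. Conversely, 5 of 64 shZHX2 regions (7.81%, interval 3.38% to 17.0%) had no partner with shCtrl, against 6.43%; 4 of the 5 were at GRHL2 and 1 at GATA3. The interval at the 9 genes holds the share over all protein-coding genes in each of the 4 directions. At equal list length by −log10 q the losses became 3 of 53 (5.66%, against 12.9%) to shZHX2 and 11 of 64 (17.2%, against 13.3%) from it. The shZHX2 list, being the shortest, was itself not cut. Such a cut can only lower the number lost to shZHX2 and only raise the number lost from it. Both comparisons use the list of shCtrl in hypoxia and are not independent of each other.

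**Figure D4:**
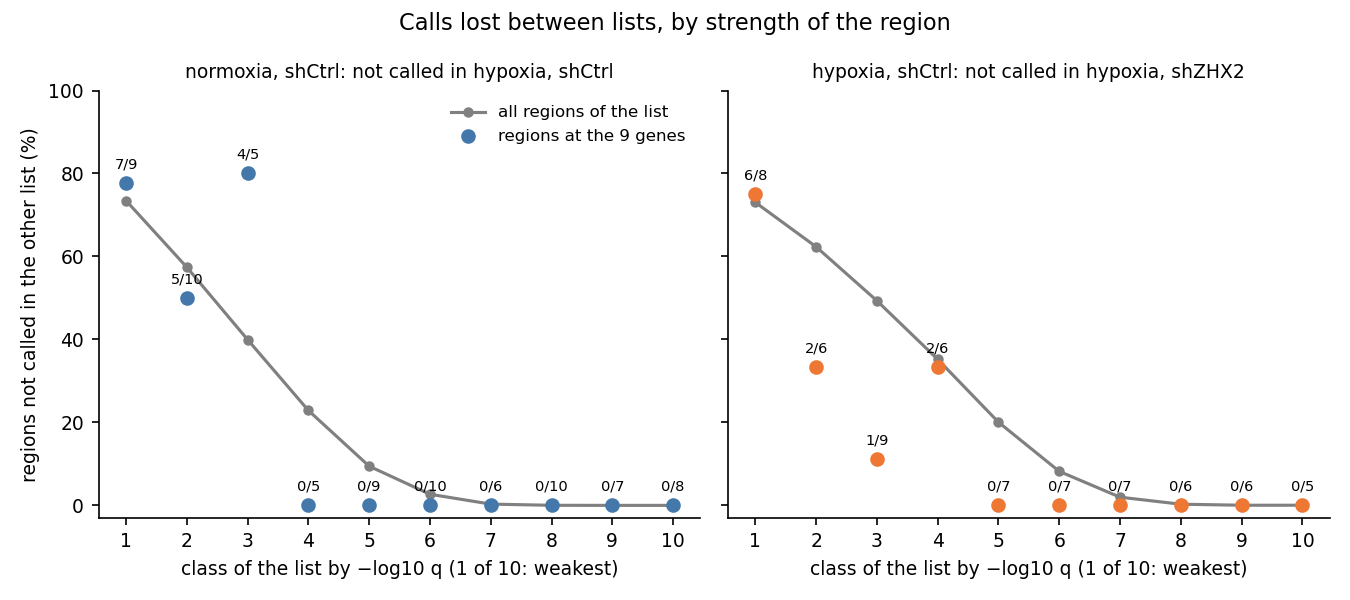
Percent of regions not called in the other list (vertical axis) in 10 classes of equal size by −log10 q, 1 being the weakest (horizontal axis), for all regions of the list (grey line) and for regions at the 9 genes (coloured points, with lost over total). At the 9 genes every lost call lay in the weakest 3 classes of the normoxia list and the weakest 4 of the hypoxia shCtrl list.

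Where both lists called a region, the fold differed little. At 64 shared regions the median log2 ratio of fold in hypoxia over normoxia with shCtrl was 0.02 (95% interval of the median −0.07 to 0.07), against −0.02 over 59472 shared regions at protein-coding genes. The hypoxia fold was the higher in 34 of 64, 53.1%, against 45.7%. Without GRHL2 it was the higher in 21 of 44, 47.7%, and the median log2 ratio was −0.02. By gene the median was highest at TFAP2C (0.07 over 4 regions) and GRHL2 (0.06 over 20) and lowest at GRHL1 (−0.17 over 3) and TFAP2B (−0.14 over 4). With the 56 regions that had a single partner in both lists, which leaves out split ones, the median was again 0.02 and 30 were higher. The 64 regions differed in width between hypoxia and normoxia by a median of −0.20 on the log2 scale of width, against −0.09 over all, and the log2 ratio of −log10 p was −0.37, against −0.18. The sign of the median thus depended on which of the authors' measures was read and, for fold, on whether GRHL2 was included.

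For shZHX2 over shCtrl in hypoxia, the median log2 ratio of fold was 0.08 (0.03 to 0.18) at 59 shared regions, against 0.06 over 48989. The shZHX2 fold was the higher in 40 of 59, 67.8%, against 62.5%. At ELF3 all 6 shared regions were higher with shZHX2, with a median of 0.09 and a range of 0.05 to 0.36. GRHL2 had a median of 0.19 with 11 of 16 higher, TFAP2A 0.11 with 7 of 10, GATA3 0.04 with 5 of 7, and FOXA1 0.01 with 2 of 3. SPDEF had −0.01 with 3 of 7 and TFAP2C 0.00 with 2 of 4. Over the 54 regions with a single partner the median was 0.08 with 38 higher, TFAP2A kept 0.11 with 6 of 8, and SPDEF turned to 0.08 with 2 of 4. The ratio of −log10 p was −0.05 at the 9 genes, against −0.20 over all shared regions, again with the opposite sign to the ratio of fold. Without GRHL2 the ratio of −log10 p was −0.24 over 43 regions, and at GRHL2 alone it was 0.12 over 16.

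**Figure D5:**
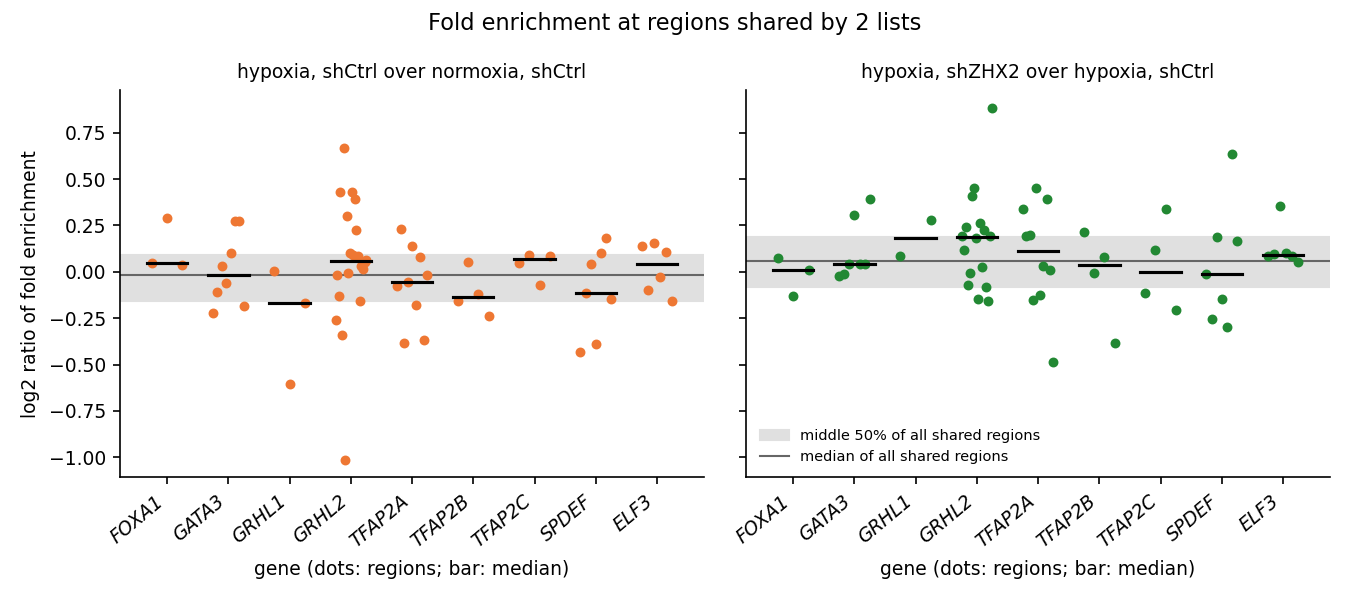
Log2 ratio of the authors' fold enrichment at each region shared by 2 lists (dots; black bar, median of the gene) for hypoxia over normoxia with shCtrl (left) and shZHX2 over shCtrl in hypoxia (right), with the median (line) and middle 50% (grey band) over all shared regions at protein-coding genes. Most dots lie in or near the band, and the farthest are the split start of GRHL2 on the left, at −1.01 and 0.67, and a GRHL2 region at 0.88 on the right.

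Paralogs of the 9 genes were described the same way, 15 genes with 76 merged regions. Of these 50 (65.8%) were called in all 3 lists and 12 (15.8%) in normoxia alone, against 61.4% and 15.6% at protein-coding genes. From normoxia to hypoxia with shCtrl they lost 15 of 70 regions (21.4%), against 19.1%. From there to shZHX2 they lost 9 of 59 (15.3%), against 22.6%. The rates of all regions of like −log10 q gave 12.2 and 15.0 in that order. Starts were called for 11 of the 15 in each list, the exceptions being TFAP2D, GATA1, GATA4 and ELF5. Over all protein-coding genes the share was 73.8% in normoxia, 72% in hypoxia with shCtrl and 70.3% in hypoxia with shZHX2. EHF, another epithelial ETS gene, had 12, 9 and 10 regions in the order normoxia, hypoxia with shCtrl, hypoxia with shZHX2, and GRHL3, the third grainyhead gene, had 5, 3 and 3.

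Other luminal and oestrogen receptor pathway genes, 25 genes with 255 merged regions, had fewer sites in common. Of these 124 (48.6%) were called in all 3 lists and 61 (23.9%) in normoxia alone, against 61.4% and 15.6% at protein-coding genes. From normoxia to hypoxia with shCtrl they lost 80 of 246 regions (32.5%), against 19.1%. From there to shZHX2 they lost 44 of 171 (25.7%), against 22.6%. The rates of all regions of like −log10 q gave 72.5 and 51.3 in that order. ESR1, the oestrogen receptor gene, had 25, 13 and 14 regions and PGR, the progesterone receptor gene, 18, 6 and 4. Not every gene of the list had fewer in hypoxia: KRT18 had 5, 5 and 5, EPCAM 6, 6 and 6, and KRT8 9, 9 and 10. The starts of all 25 were called in normoxia and those of 24 in each hypoxia list, where TFF1, an oestrogen-induced gene, had none. The share over all protein-coding genes was 73.8%, 72% and 70.3% in the order of the lists. With 1 list a group, the difference between these genes and the 9 was not tested.

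Among 1777 protein-coding genes with at least 10 merged regions, those whose regions fell into the 7 combinations of lists most like the 82 were RASA3, NLGN1, PLCE1, BAHCC1 and TBC1D16. The measure was the sum of absolute differences in share over the 7 combinations, which was 0.104 for RASA3, with 19 regions, and 0.107 for NLGN1, with 35. Single genes of the 9 lay farther from their own pooled shares, from 0.326 for GRHL2 to 0.712 for GRHL1, over 5 to 26 regions.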

How the data were processed

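ATAC-seq was measured in 9 T47D samples, 3 per group, and analysed as 3 deposited lists of regions on hg38, 1 per group. The submitters' processing notes name FastQC, Bowtie2, SAMtools and MACS2 and give no version or setting. Whether samples were pooled before calling, and whether reads were shifted, is not given in the sources used here. Columns of the deposited lists hold the authors' score, their fold enrichment over background and 2 significance columns, −log10 p and −log10 q. The score equals 10 times the −log10 q without its decimals in nearly all regions, and the lowest −log10 p is just above 10.

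The values were computed with Python 3.11.15, pandas 2.3.3, numpy 2.4.6 and SciPy 1.17.1, and drawn with matplotlib 3.10.9. An overlap of 1 bp made a region called in both lists, and the partner with the largest overlap gave the ratio of fold, split regions included. Each region went to every protein-coding gene whose span it touched, otherwise to the nearest within 50 kb, by RefSeq gene spans on GRCh38.p14, whose coordinates are those of hg38. A start was one of the RefSeq promoter table, or a gene end where that table has no entry. Intervals are Wilson 95% intervals, or order-statistic 95% intervals for medians. The scripts were tested on simulated lists. All 9 genes are named, with their start region, their strongest region by fold and regions not called in all 3 lists. GATA3 and GRHL2 regions described for an unusual ratio or order were chosen after their values were seen, as were such regions at the other genes. The 9 genes, the comparison lists and the settings were chosen with earlier results of these data known. The 12 alternative settings changed distance, span, gene table, overlap, threshold, list length, partner, measure, start window, strand and nearest-gene rule.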

Additional observations from a re-analysis of the deposited data

How the results depend on the processing

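No paired analysis was possible because each group has 1 list, and no replicate could be left out. Of 83 main values recomputed under the alternatives, 63 kept within their interval or 1.5 times their count, 16 moved and 4 changed sign. Counting regions inside gene spans only left 46, 40 and 39 regions in normoxia, hypoxia with shCtrl and hypoxia with shZHX2, and the stronger 50% of each list left 41, 31 and 28, both by construction. With lists of equal length by −log10 q, 5.56% of normoxia regions were not called in hypoxia, against 9.78% at protein-coding genes. The loss was 5.66% of hypoxia regions with shZHX2, against 12.9%, and 17.2% of shZHX2 regions in hypoxia, against 13.3%, with the shZHX2 list uncut. The median log2 ratio of hypoxia over normoxia was −0.0011. With the lists cut instead by fold, normoxia and hypoxia each had 36 regions at the 9 genes and 5 starts. No share of starts over all protein-coding genes is given for that cut. Then 13.9% of hypoxia regions were not called in normoxia, against 11.5% of regions at protein-coding genes reduced the same way. With shZHX2 8.33% of hypoxia regions were not called, against 14.8%. Of shZHX2 regions 48.4% were not called in hypoxia, against 16.5%, and the shZHX2 list, being the shortest, was itself not cut. The median ratio of hypoxia over normoxia was −0.026. The ratio of −log10 p gave −0.37 for hypoxia over normoxia and −0.050 for shZHX2 over shCtrl. The cause of these changes was not tested. Of 199 values for single genes and motifs, 125 stayed within 1.5 times and 74 did not. Taking every region within 50 kb, whatever its nearest gene, was chosen after seeing the data and moved none of the main values past those limits. The unknown depth limits every call near the threshold.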
